A study of Homo sapiens with 6 samples.

Results

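Mucin transcripts were compared between PC-3 cells depleted of CdGAP and control PC-3 cells, over 10 mucin genes out of the 64253 genes counted in each library. The genes were taken by symbol: MUC5AC, MUC5B, MUC2 and MUC6, which encode secreted gel-forming mucins, and MUC1, MUC4, MUC13, MUC16, MUC20 and MUC15, which encode membrane-bound mucins. They were selected on their fold changes between shCdGAP and shCon cells in these same libraries, so those fold changes are given as a description and without a test. The PC-3 line is an established human cell line from prostate cancer, and CdGAP, the product of ARHGAP31, is a GTPase-activating protein that switches off the small GTPases Rac1 and Cdc42. RNA was sequenced from 3 samples of PC-3 cells that carried a lentiviral shRNA against CdGAP (shCDGAP in the titles, shCdGAP here) and from 3 samples with a control shRNA (shCONTROL in the titles, shCon here), with no other treatment in the labels. According to the methods the CdGAP-depleted cells were selected with puromycin and grown as single-cell clones, and the methods do not say the same of the control cells, so an effect of the shRNA and a property of 1 clone cannot be told apart.

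Mucins are large glycoproteins whose central stretches of repeated, serine- and threonine-rich sequence carry dense O-linked sugars. The gel-forming mucins are released and linked into the polymer network of mucus, as in the airway, stomach and gut, and their genes sit side by side in a cluster at 11p15. Membrane-bound mucins stay at the cell surface through a transmembrane segment, and several of them, MUC1 in particular, are widely made by epithelia and their tumors.

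The 6 libraries held between 33182796 and 43154039 counted reads. ARHGAP31 had 1072, 1181 and 926 reads in shCdGAP replicates, 2472, 2557 and 1923 in control replicates, and was lower in the CdGAP-depleted cells (log2 fold change -1.14, adjusted p = 8.75e-08 in edgeR's quasi-likelihood test with Benjamini-Hochberg adjustment, 45.3% of the control level). The shCdGAP library of replicate 2 stood apart from the other two of its group. Of the 16439 genes tested, 2.19% lay more than 1 log2 unit from the mean of replicates 1 and 3 in that library, whereas 0.998% differed as much between replicates 1 and 3. For most results that rest on it, values without it are given too. The marker levels below include all libraries. Without shCdGAP replicate 2, CDH1 and PECAM1 were called lower, and KRT19 lost the higher call it had with all libraries. Of the epithelial markers, KRT8, KRT18, KRT19 and EPCAM were abundant in all libraries, while KLK3 and KLK2, which mark androgen-responsive prostate cells, had no read. The summed level of the 11 epithelial markers was 981 to 1238 CPM (reads scaled to a library of 1000000) in shCdGAP and 751 to 772 CPM in shCon libraries. That of the 12 markers of other cell types was 347 to 355 CPM against 308 to 314 CPM. Of these, 6 were tested and 4 were called higher in shCdGAP cells (COL1A1, COL3A1, PDGFRB and CD68), next to 8.56% of all tested genes. Among the markers of other cell types, PTPRC and VWF had at most 1 read in any library and CD3E had none, whereas the endothelial marker PECAM1 had 93 to 261 reads in shCdGAP and 181 to 236 in shCon libraries and the collagen gene COL1A2 stood at 279 and 286 CPM on average. The part of these shifts in the mucin values was not tested. In bulk RNA, fewer cells that make a mucin and less of its RNA per cell cannot be told apart.

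Mucin reads were counted on exons that consist in part of repeats, so repeated runs are shown first. The longest exon of MUC5AC (chr11:1182155-1192525, 10371 bases) made up 59.4% of its summed exon length, that of MUC5B (chr11:1240851-1251743, 10893 bases) 58.6% and that of MUC2 (chr11:1094142-1100025, 5884 bases) 46.5%. Below is the most frequent run in each of these exons and in the longest exon of MUC6. Its length was the smallest spacing at which the exon matched itself nearly as well as at the best spacing searched. Only short spacings were searched, so longer units would be missed. Runs are given 5′ to 3′ on the coding strand, read from the hg38 copy of GRCh38, with nothing marked by capitals.
MUC5AC: ctcctacaaccagcacaacctctg
MUC5B: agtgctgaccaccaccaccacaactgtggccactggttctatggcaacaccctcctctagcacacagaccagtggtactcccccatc
MUC2: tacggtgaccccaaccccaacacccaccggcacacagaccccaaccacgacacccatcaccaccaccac
MUC6: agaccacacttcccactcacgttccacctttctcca
The MUC5AC run spans 24 bases, occurs 16 times without a mismatch and was first met at chr11:1185245-1185268. The MUC5B run of 87 bases (chr11:1243189-1243275) occurs 5 times, the MUC2 run of 69 bases (chr11:1096165-1096233) 9 times and the MUC6 run of 36 bases (chr11:1018447-1018482) 3 times. At these spacings 53.7% of bases matched in the MUC5AC exon, 46.7% in MUC5B, 75.6% in MUC2 and only 37.1% in MUC6. The MUC6 run is therefore not taken as the repeat unit of that gene. Of all 50-base windows in the exons, 24.7% of those in MUC5AC, 32.1% in MUC5B, 26.1% in MUC2, 38.3% in MUC1 and 24.2% in MUC4 occurred more than once in the same gene. The same share was 14.3% for MUC20, 2.06% for MUC6 and 0.787% for MUC16, and it was 0 for MUC13 and MUC15. The settings in the table headers count no read that aligns to several places, so reads that fit several repeat copies were left out in both groups, and levels per length of the repeat-rich mucins may be less complete.

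The promoters of MUC2 and MUC13 are shown because MUC2 is the gel-forming mucin whose shCdGAP libraries split and MUC13 the membrane-bound mucin that was higher in CdGAP-depleted cells. That of MUC1 is shown beside them as the member with the most motif matches. They are the 250 bases before the RefSeq start (GRCh38.p14), 5′ to 3′ on the strand of the gene, and capitals mark any match to a searched motif.
MUC2: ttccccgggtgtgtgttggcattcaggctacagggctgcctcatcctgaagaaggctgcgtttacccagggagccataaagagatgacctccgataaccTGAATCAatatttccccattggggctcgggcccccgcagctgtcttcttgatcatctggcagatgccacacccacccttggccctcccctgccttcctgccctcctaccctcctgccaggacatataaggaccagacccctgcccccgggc
MUC13: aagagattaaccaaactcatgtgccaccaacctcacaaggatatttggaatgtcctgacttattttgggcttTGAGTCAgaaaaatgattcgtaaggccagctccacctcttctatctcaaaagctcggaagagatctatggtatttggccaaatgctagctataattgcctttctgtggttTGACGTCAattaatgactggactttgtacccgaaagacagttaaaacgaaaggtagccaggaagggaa
MUC1: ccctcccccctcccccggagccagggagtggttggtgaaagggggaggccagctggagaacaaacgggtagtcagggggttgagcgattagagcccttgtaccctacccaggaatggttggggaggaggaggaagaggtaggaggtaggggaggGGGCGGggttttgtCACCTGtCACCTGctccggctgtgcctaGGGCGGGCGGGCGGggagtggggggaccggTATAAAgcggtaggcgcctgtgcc
The windows are chr11:1074624-1074873 on the plus strand for MUC2, chr3:124934752-124935001 on the minus strand for MUC13 and chr1:155192916-155193165 on the minus strand for MUC1. The MUC13 window lies inside the counted gene (chr3:124905442-124953819), so its RefSeq start is not the outermost start of the gene whose reads were counted. Motifs were searched on both strands as TATAAA (the core promoter box), GGGCGG (GC box), TGANTCA (AP-1), TGTTTAC (FOXA), CAGGTG (SNAI1 type E-box) and TGACGT (CRE core). The MUC2 window held TGAATCA 151 bases before the start, and the MUC13 window held TGAGTCA 178 bases before the start. An AP-1 match was present in 6.57% of the 35116 promoters of the table. MUC13 also held TGACGT 68 bases before the start, overlapping its own match on the other strand, a motif present in 7.1% of promoters. The MUC1 window held TATAAA 24 bases before the start (10.7% of promoters), 4 GC boxes, 3 of them overlapping, whose motif 42.6% of promoters held, and 2 E-boxes read as CACCTG on this strand (17.5% of promoters). No FOXA match was in the MUC2, MUC13 or MUC1 window, and 2.98% of promoters held one. The RefSeq table held 5 of the 10 genes, these 3 and MUC4 and MUC16, each with a single GC box. MUC5AC, MUC5B, MUC6, MUC20 and MUC15 had no entry.

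The secreted mucins were far less abundant in CdGAP-depleted cells, with MUC2 as a partial exception. MUC5B, a main mucin of airway and glandular mucus (chr11:1223066-1262172, plus strand), had 11918, 11773 and 8252 reads in shCon replicates 1, 2 and 3 and 159, 225 and 136 reads in the shCdGAP replicates. Scaled to library size these were 271 ± 18.5 CPM in shCon and 4.35 ± 0.708 CPM in shCdGAP cells (SD, n = 3 each). Every control library was far above every CdGAP-depleted one. The log2 fold change of MUC5B was -5.95 (standard error 0.105), a level 61.9 times lower.

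MUC5AC, the gel-forming mucin of airway goblet cells and the gastric surface (chr11:1157953-1201138, plus strand), showed the same split at a lower level. It had 661, 698 and 542 reads in shCon and 10, 5 and 7 reads in shCdGAP libraries. This gave 16.2 ± 0.419 against 0.188 ± 0.0672 CPM (SD, n = 3 each) and a log2 fold change of -6.42 (standard error 0.159), or 85.9 times lower. The shCdGAP level rests on 22 reads in all, and the groups did not come near each other.

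MUC6, a mucin of gastric glands (chr11:1012821-1036706, minus strand), was weakly expressed in control cells. Its reads numbered 21, 22 and 16 in shCon libraries and 0, 2 and 0 in shCdGAP libraries, so only replicate 2 of the CdGAP-depleted cells held any. From 59 against 2 reads the control level was 29.8 times the shCdGAP level, with an exact 95% interval of 7.90 to 252 for counting error only. The fitted log2 fold change of -4.66 (standard error 0.591), which was -7.29 without shCdGAP replicate 2, depends on how so few reads are shrunk.

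MUC2, the gel-forming mucin of intestinal goblet cells (chr11:1074875-1110511, plus strand), differed among the CdGAP-depleted libraries. It had 223, 188 and 185 reads in shCon libraries and 32, 188 and 23 in shCdGAP libraries. In CPM, shCdGAP replicates 1 and 3 stood at 0.789 and 0.669, whereas replicate 2 stood at 4.32, just under the lowest control library at 4.45. The shCon mean was 5.12 ± 0.596 and the shCdGAP mean 1.92 ± 2.07 CPM (SD, n = 3 each). The log2 fold change of MUC2 was -1.36 (standard error 0.679) with all libraries and -2.80 (standard error 0.179) without shCdGAP replicate 2. For MUC5B and MUC5AC the same omission gave -6.11 and -6.15, close to their values with all libraries.

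**Figure D1:**
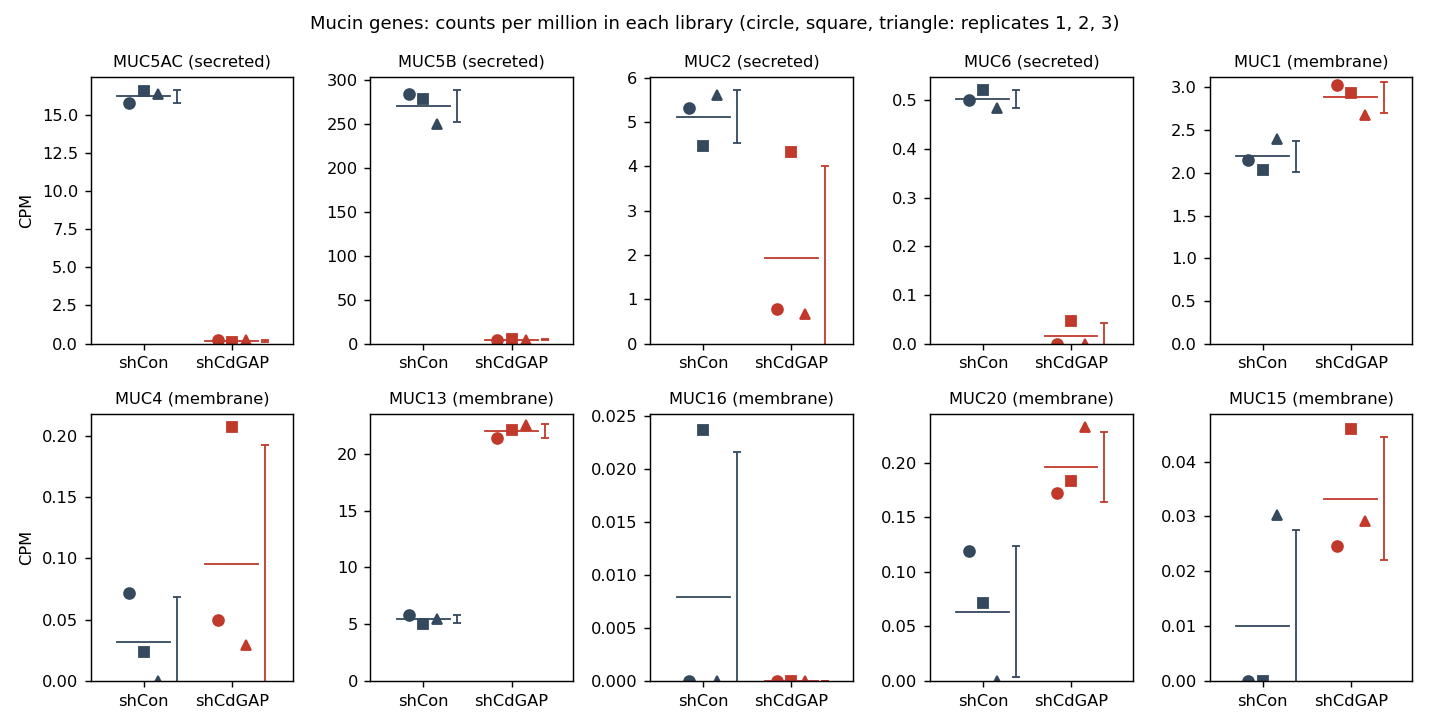
CPM (y axis, linear, a scale of its own in each panel) of the 10 mucin genes in the 3 shCon and 3 shCdGAP libraries, with the mean as a line and the SD as a bar that is cut off at 0. The 3 shCdGAP points lie near 0 for MUC5AC, MUC5B and MUC6, MUC2 has replicate 2 near the controls, and MUC13 stands at 21.4 to 22.5 in shCdGAP against 5.05 to 5.79 in shCon libraries.

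The membrane-bound mucins did not share this pattern. MUC13, a mucin of the gut epithelial surface (chr3:124905442-124953819, minus strand), had 866, 962 and 774 reads in shCdGAP libraries and 243, 213 and 180 in shCon libraries. Its level was 22.0 ± 0.587 CPM in CdGAP-depleted and 5.43 ± 0.373 CPM in control cells (SD, n = 3 each). The shCdGAP libraries lay close together and well above the controls, replicate 2 included. The log2 fold change of MUC13 was 2.02 (standard error 0.0727), a level 4.05 times higher.

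MUC1 (chr1:155185824-155192916, minus strand) had 123, 128 and 92 reads in shCdGAP and 90, 86 and 79 in shCon libraries. All 3 shCdGAP libraries were above all 3 controls once scaled, at 2.88 ± 0.185 against 2.19 ± 0.181 CPM (SD, n = 3 each), but the difference was small, with a log2 fold change of 0.40 (standard error 0.128). The remaining 4 membrane-bound genes had at most 9 reads in any library and were left out of the fit by the filter on low counts. MUC20 (chr3:195720882-195741123) had 7, 8 and 8 reads in shCdGAP against 5, 3 and 0 in shCon libraries, a ratio of 2.84 with an exact 95% counting interval of 1.23 to 7.35. A pseudogene copy, MUC20P1, lies on the same chromosome arm, and the transcript MUC20-OT1 overlaps MUC20 on the same strand. Whether MUC20 reads were lost to either of them was not tested. MUC4 (chr3:195746765-195812277) had 2, 9 and 1 reads in shCdGAP and 3, 1 and 0 in shCon libraries, and MUC15 (chr11:26559033-26572233) 1, 2 and 1 against 0, 0 and 1. Neither difference was detectable at this depth, since the counting intervals of the ratios, 0.90 to 12.6 and 0.392 to 195, include equal levels. MUC16, which encodes the CA-125 antigen (chr19:8848844-8981342), had a single read in the 6 libraries, in shCon replicate 2, and a count of 0 allows up to 0.0689 to 0.0908 CPM per library.

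Of the 10 genes, 6 had enough reads to be tested among all genes, 3 of them were past the call rule on the lower side (MUC5AC, MUC5B and MUC6) and 1 on the higher side (MUC13). The rule was the one the study used for its volcano plot, an adjusted p under 0.01 with an absolute log2 fold change above 1. It called 12.8% of all 16439 tested genes, 8.56% higher and 4.19% lower in shCdGAP cells. In all 6 tested mucins the 3 shCdGAP libraries lay on one side of the 3 shCon libraries, and the same was true of 67.1% of all tested genes. Since the genes were picked for these differences, the counts describe the set and are read no further.

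Levels per length (RPKM, from the exon length in the tables) put the mucins in a different order in the 2 groups. In control cells MUC5B led at 14.6 ± 0.995, followed by MUC13 at 1.55 ± 0.107, MUC5AC at 0.930 ± 0.0240, MUC1 at 0.465 ± 0.0384 and MUC2 at 0.404 ± 0.0471 RPKM (SD, n = 3). MUC1 and MUC2 overlapped there, while each other neighbour in this order was apart from the next. MUC6 came next at 0.0596 ± 0.00220 RPKM, above MUC20, MUC15, MUC4 and MUC16, which overlapped one another.

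In CdGAP-depleted cells the order opened with MUC13 at 6.28 ± 0.168 RPKM and MUC1 at 0.611 ± 0.0392 RPKM (SD, n = 3), which were apart from each other and from all below. MUC5B followed at 0.234 ± 0.0381 RPKM and overlapped MUC2 at 0.152 ± 0.164 RPKM. MUC2 in turn overlapped MUC20 at 0.0462 ± 0.00753 RPKM, the only low-count member that stood above MUC5AC in these cells. MUC5AC, at 0.0108 ± 0.00385 RPKM, overlapped MUC15.

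The secreted share of the summed mucin RPKM was 88.6%, 89.6% and 87.8% in control libraries and 4.06%, 8.26% and 3.77% in CdGAP-depleted ones. MUC5B alone accounted for 79.3% to 82.2% in control cells, and MUC13 for 82.7% to 87.6% in CdGAP-depleted cells. In shCdGAP replicate 2 MUC2 made up 4.46% of the sum, against 0.879% and 0.719% in replicates 1 and 3. Without regard to length, the 10 genes took 314, 308 and 280 CPM in shCon and 29.6, 35.1 and 30.3 in shCdGAP libraries. The ratio of MUC13 to MUC1, both on the RPKM scale, was 3.07 to 3.64 in shCon and 9.49 to 11.3 in shCdGAP libraries. That of MUC5B to MUC5AC was 14.3 to 16.9 in shCon libraries and 14.9, 42.2 and 18.2 in shCdGAP libraries, where the high value of replicate 2 rests on 5 MUC5AC reads.

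**Figure D2:**
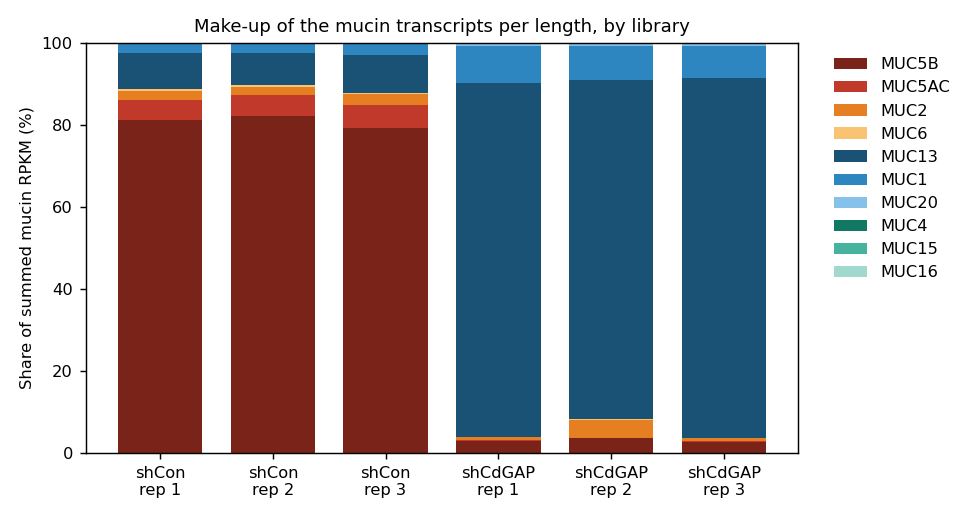
Share of each mucin in the summed RPKM of the 10 genes (y axis, percent) in each library, secreted mucins in warm and membrane-bound mucins in cold colors. MUC5B fills most of each shCon bar, MUC13 most of each shCdGAP bar, and the shCdGAP bar of replicate 2 shows the wider MUC2 band.

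The 4 secreted genes form 1 cluster on chromosome 11, a span of 249.4 kb from MUC6 to MUC5B. MUC6 lies first and on the minus strand, 38.17 kb from MUC2, and is followed on the plus strand by MUC2, by MUC5AC 47.44 kb further and by MUC5B after another 21.93 kb. Of the other genes, 3 lie inside the span, and those with reads were lower in CdGAP-depleted cells too. LINC02688, a long noncoding RNA gene between MUC6 and MUC2 (chr11:1049880-1055749), had 6, 17 and 4 reads in shCdGAP against 64, 51 and 45 in shCon libraries (log2 fold change -2.58, adjusted p = 0.000218 in edgeR's quasi-likelihood test with Benjamini-Hochberg adjustment). Replicate 2 was the highest of its shCdGAP libraries, and the fold change moved to -3.33 on the log2 scale once it was left out. MUC5B-AS1, transcribed from the strand opposite MUC5B (chr11:1242261-1249676), had no read in CdGAP-depleted cells and 9, 6 and 4 in the control libraries. With a floor of 3 reads per library MUC5B-AS1 was at least 2.08-fold lower, too few reads for the fit. Counting was strand-specific, but MUC5B-AS1 lies inside the longest MUC5B exon (chr11:1240851-1251743). Whether its few reads came from MUC5B through imperfect strand assignment was not tested. MIR6744 had no read in any library.

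The drop did not extend evenly beyond the cluster. Inside the span and within 500 kb on either side lay 64 genes other than the mucins, of which 35 were tested. Of these, 1 was called higher and 2 lower, LINC02688 being 1 of the lower ones. Over all tested genes 8.56% were called higher and 4.19% lower. The median log2 fold change of the 35 was 0.10, next to 0.01 over all tested genes. AP2A2, whose gene ends just before MUC6 (chr11:924894-1012245), had a log2 fold change of -0.38 (adjusted p = 0.000925), and TOLLIP on the other side of MUC5B (chr11:1274371-1309654) one of 0.37 (adjusted p = 3.88e-05), both short of the fold limit. The other called genes were farther out. BRSK2, a kinase gene of neurons (chr11:1389899-1462689), had 24, 17 and 13 reads in shCdGAP against 258, 227 and 219 in shCon libraries (log2 fold change -3.72, adjusted p = 4.92e-07). IRF7, an interferon-response transcription factor on the other side (chr11:612553-615999), was higher by a log2 fold change of 1.98 (adjusted p = 2.07e-06).

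**Figure D3:**
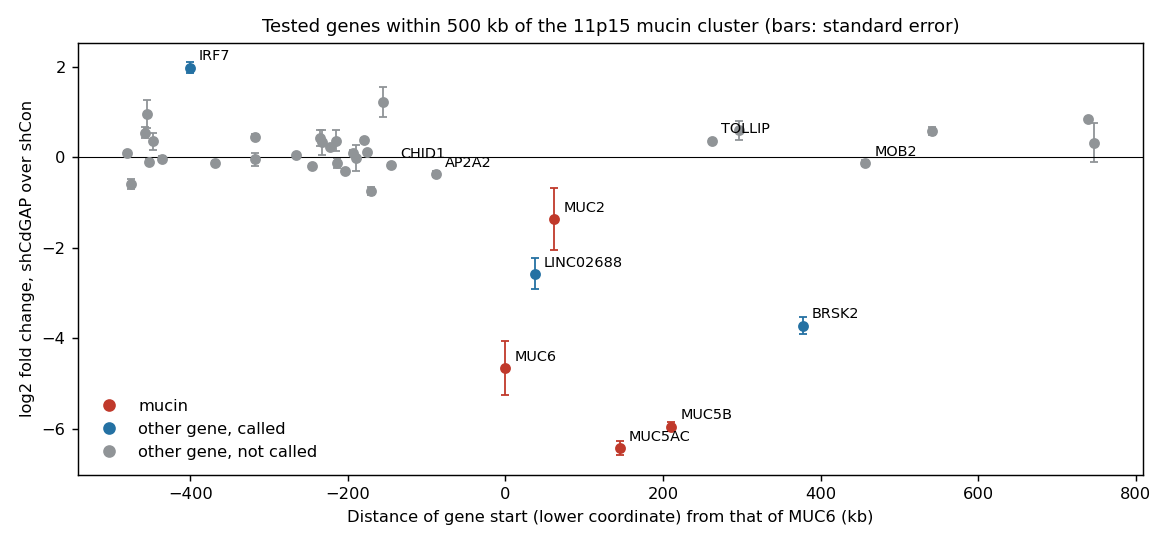
Log2 fold change between shCdGAP and shCon cells (y axis, bars are standard errors) of the tested genes within 500 kb of the cluster, against the distance of their lower coordinate from that of MUC6 (x axis, kb). The 4 mucins, LINC02688 and BRSK2 lie well below 0, while the flanking genes AP2A2 and TOLLIP lie close to it.

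MUC20 and MUC4 form a smaller pair at 3q29, 5.642 kb apart. Around them 45 genes lay within 500 kb and 13 were tested, with a median log2 fold change of -0.11. None of these was called higher and 1 lower, next to 8.56% and 4.19% of all tested genes. The called gene, DYNLT2B, a dynein light chain gene, had a log2 fold change of -1.02 (adjusted p = 0.00118), but it lost the call in 5 of 14 alternatives, among them without shCdGAP replicate 1 (-0.90), shCdGAP replicate 3 (-0.93) or shCon replicate 2 (-0.997). MUC20-OT1, a transcript that overlaps MUC20, was at 5.84 ± 0.394 CPM in shCdGAP and 6.94 ± 1.01 CPM in shCon cells (SD, n = 3 each), with an adjusted p of 0.113. The other members lie apart from these clusters. Within 5 Mb of MUC13, 80 genes were tested, with a median of 0.02 on the log2 scale, and within 5 Mb of MUC1, 182 genes had a median of 0.04.

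Genes that work with mucins were then examined in 5 lists of 113 symbols, of which 66 were tested, 10 were higher and 8 lower in CdGAP-depleted cells. Among 14 other genes with mucin in their name or mucin-type sequence, 12 were found in the tables and 2 had enough reads. OVGP1, an oviduct mucin-type glycoprotein, had 458, 652 and 380 reads in shCdGAP against 97, 84 and 69 in shCon libraries and was higher (log2 fold change 2.55, adjusted p = 1.24e-06). CD164, a sialomucin of many cell types, was at 312 ± 30.6 against 274 ± 1.45 CPM (SD, n = 3 each) and was not called (log2 fold change 0.19, adjusted p = 0.0309). MUC7, MUC12, MUC17 and MUC21 had no read at all, and MUC3A, MUC19, MUC22, MUCL1, MUCL3 and EMCN had at most 9 in any library.

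The secretory companions of mucins were lower wherever they were called. Of 20 listed, 7 were tested, 5 were lower and none higher, and their median log2 fold change was -2.17. The trefoil factors, small peptides that are released with mucus, were all lower. TFF2 had 5, 3 and 1 reads in shCdGAP and 133, 153 and 109 in shCon libraries (log2 fold change -5.41, adjusted p = 5.65e-07). For TFF1 the reads were 31, 4 and 18 against 248, 241 and 190 (-3.68, adjusted p = 0.000121), and here replicate 2 was the lowest of the shCdGAP libraries. Without shCdGAP replicate 1 its log2 fold change was -4.34 (adjusted p = 0.000114). TFF3 was lower by a smaller margin, with 19, 21 and 13 against 57, 73 and 59 reads (-1.85, adjusted p = 6.88e-05). The trefoil genes lie next to each other on chromosome 21, and of the 81 other tested genes within 5 Mb of TFF2, TFF1 and TFF3 included, 10 were called lower (12.3%, next to 4.19% of all tested genes), with a median of -0.13. The part of that region in the trefoil values was not tested.

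FCGBP, a mucus protein that is crosslinked to gel-forming mucins, was the most abundant of these genes. It had 5029, 11535 and 3289 reads in shCdGAP and 31934, 30178 and 23387 in shCon libraries, so replicate 2 held the most of the shCdGAP group and the groups did not overlap. Its log2 fold change was -2.17 (adjusted p = 0.00853) and lost the call in 8 of 14 alternatives, among them each library left out in turn except shCdGAP replicate 2 (adjusted p from 0.0133 to 0.0373), while without that replicate it was -2.74 (adjusted p = 0.000475). LYZ, the antibacterial lysozyme of secretory cells, had few reads and was lower (-3.06, adjusted p = 0.000614). AGR2, the disulfide isomerase needed to fold MUC2, was not called, with 1237, 2884 and 950 reads against 1785, 1832 and 1524 and overlapping groups (-0.08, adjusted p = 0.874). Without shCdGAP replicate 2 its log2 fold change was -0.60, still short of the fold limit. ZG16B missed the fold limit at -0.88 (adjusted p = 0.000797). Without shCdGAP replicate 2, 7 of 8 tested companions were called lower, with ZG16B and PIGR added. That fit called 900 genes lower over all features, compared with 689 with all libraries. Its adjusted p-values, that of FCGBP included, are not weighed, for a reason given below with KLF5.

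Of 26 transcription factors known from mucin-secreting epithelia, 17 were tested, 2 were lower and none higher, and their median log2 fold change was -0.35. SOX2, a regulator of airway and gastric progenitors, had 3, 6 and 0 reads in shCdGAP and 300, 272 and 238 in shCon libraries (-6.46, adjusted p = 4.72e-07). The size of this fold rests on few shCdGAP reads, and it was -7.33 without shCdGAP replicate 2. KLF5, an epithelial zinc finger factor, was at 33.8 ± 0.221 against 112 ± 0.653 CPM (SD, n = 3 each, log2 fold change -1.73, adjusted p = 8.81e-09). KLF5 lies on chromosome 13, where 130 of 271 tested genes (48.0%) were called lower, and 17 of the 18 tested genes within 5 Mb of it were lower, with a median of -1.58. The part of that stretch in the KLF5 value was not tested. Around SOX2, by contrast, 0 of 67 tested genes within 5 Mb were called lower, and their median was -0.11.

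FOXA2, a forkhead factor of gut and airway epithelia, showed a high replicate 2 like MUC2. It had 138, 780 and 133 reads in shCdGAP and 759, 696 and 575 in shCon libraries, and replicate 2 lay at the control level. With all libraries FOXA2 was not called (log2 fold change -1.02, adjusted p = 0.258). Without shCdGAP replicate 2 its log2 fold change was -2.27, past the call rule. Adjusted p-values of the fit without that library were far smaller even where it barely moved the fold change, so they are not weighed here. That of KLF5 went from 8.81e-09 to 2.23e-34 in edgeR's quasi-likelihood test, at log2 fold changes of -1.73 and -1.74. SPDEF, a goblet cell regulator, had 310, 685 and 289 reads against 854, 791 and 615. Its log2 fold change moved from -0.85 (adjusted p = 0.0348) to -1.28 without shCdGAP replicate 2. ELF3 and NKX2-1 also passed the rule without that library, which made 6 of 17 factors lower. The same fit called 900 genes lower over all features. ATOH1, with too few reads to be tested, was also low in all 3 shCdGAP libraries (1, 2 and 2 reads against 8, 8 and 9). The list was not uniform, and KLF4 had 1773, 2309 and 1561 against 1790, 1812 and 1339 reads (0.17, adjusted p = 0.0651). XBP1, GATA6 and HNF4G, also tested, had log2 fold changes between 0.04 and 0.21.

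**Figure D4:**
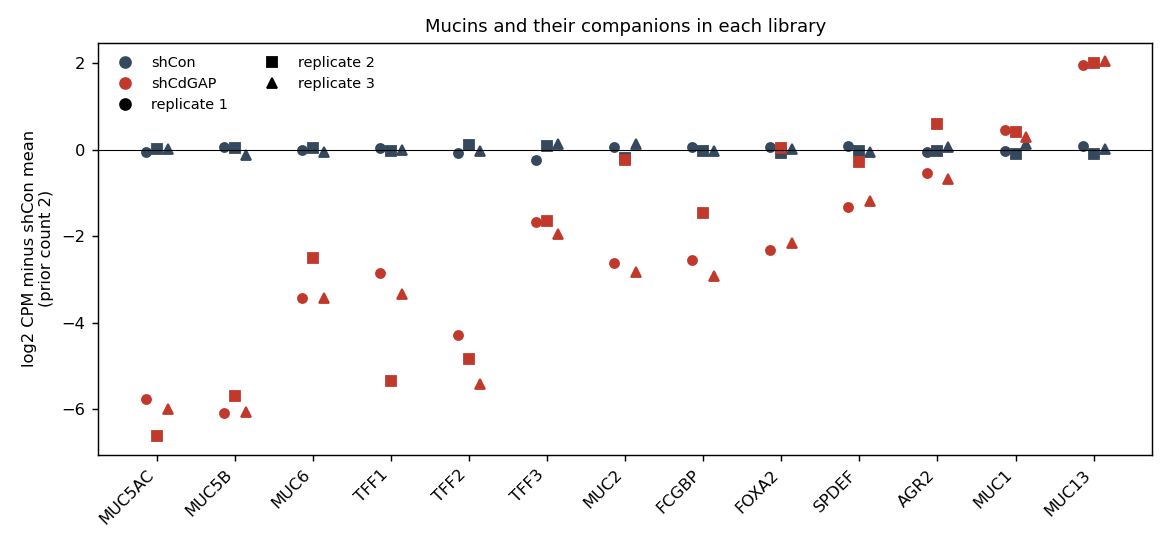
Difference in log2 CPM of each library from the mean of the 3 shCon libraries (y axis, prior count 2) for 13 genes, with shape giving the replicate. For MUC2, FOXA2, SPDEF, AGR2 and FCGBP the shCdGAP square (replicate 2) stands above the circle and triangle, whereas for MUC13, MUC1 and TFF3 the 3 shCdGAP points lie together.

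The enzymes that build O-linked sugars on mucins were mostly higher where they were called. Of 20 GalNAc transferases, which attach the first sugar, 14 were tested, 3 were higher and none lower, and the median log2 fold change was -0.05. GALNT5 had 420, 464 and 388 reads in shCdGAP against 61, 69 and 46 in shCon libraries (2.84, adjusted p = 1e-07). GALNT14 had 10, 11 and 11 reads against 0, 0 and 1, a ratio of 31.7 with an exact 95% counting interval of 5.29 to 1289 (adjusted p = 0.000569). GALNT12 was higher by 1.11 on the log2 scale (adjusted p = 2.84e-05), a call that was lost without shCdGAP replicate 2 (0.96). The abundant GALNT2, at 12244, 12866 and 9971 reads against 16337, 17144 and 12873, was not past the fold limit (-0.42, adjusted p = 1.21e-05).

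Of 33 enzymes that extend, sialylate, fucosylate or sulfate these sugars, 26 were tested, 6 were higher and 1 lower, and their median log2 fold change was 0.50. B4GALNT2, which makes the Sd(a) blood group antigen, had 56, 48 and 43 reads in shCdGAP against 1, 3 and 1 in shCon libraries (4.77, adjusted p = 5.25e-06, and 5.37 without shCon replicate 2). GCNT3, the mucin-type core branching enzyme, had 397, 350 and 336 against 63, 57 and 29 reads (2.86, adjusted p = 1.73e-06). Both sets of libraries were far apart for these enzymes. B3GNT7 was higher as well (1.58, adjusted p = 0.000673). GCNT4 (2.05, adjusted p = 0.0087) and GAL3ST4 (1.19, adjusted p = 0.00633) lost the call in 7 and 8 of 13 alternatives. For GCNT4 these included leaving out shCdGAP replicate 1 or 3 or shCon replicate 1 or 2 (adjusted p from 0.0106 to 0.0431), and for GAL3ST4 leaving out any library but shCdGAP replicate 2 (adjusted p from 0.0174 to 0.0342). B3GNT4 (1.19, adjusted p = 0.00148) lost it under a test against the fold limit (glmTreat) and without shCon replicate 1 (1.13, adjusted p = 0.0102). The exception was ST6GALNAC1, the sialyltransferase that makes sialyl-Tn, with 1, 0 and 2 reads against 48, 28 and 29 (adjusted p = 6.46e-05), a control level 35.4 times the shCdGAP level with an exact 95% counting interval of 11.8 to 174. C1GALT1, which makes core O-glycans, was higher in each shCdGAP library than in any control but short of the fold limit (0.87, adjusted p = 8.52e-07). These lists were drawn up with earlier results of these data known, and their counts stand beside the 8.56% of tested genes called higher and 4.19% called lower.

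**Figure D5:**
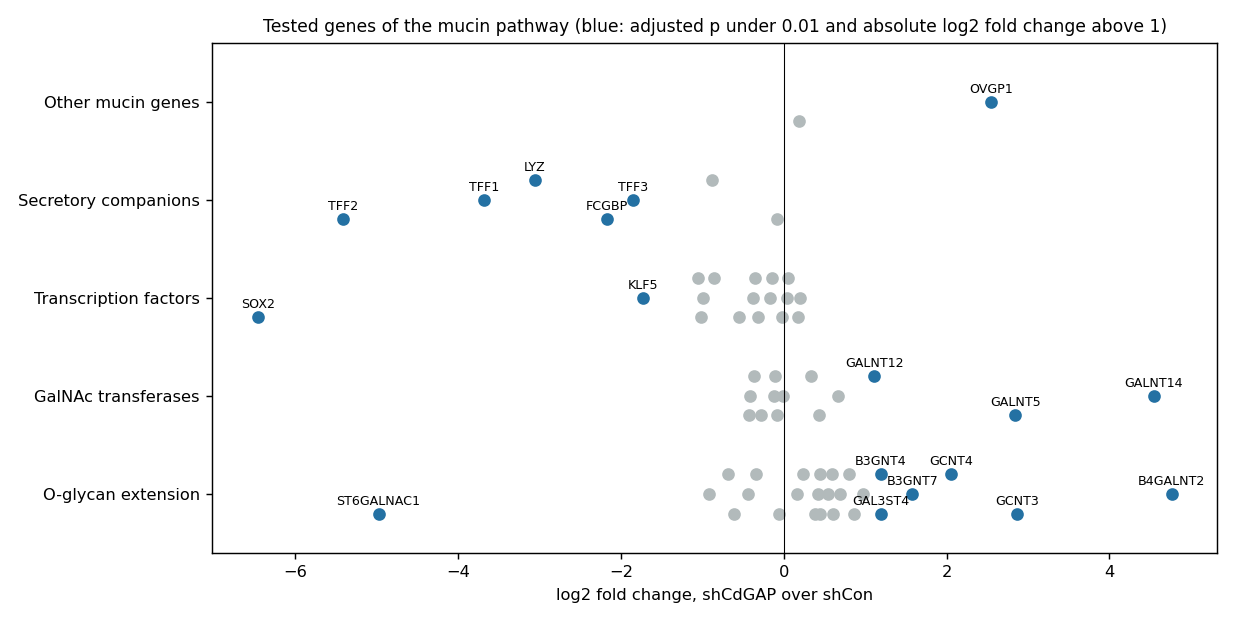
Log2 fold change between shCdGAP and shCon cells (x axis) of the 66 tested genes of the 5 lists, 1 point per gene, blue where the call rule was met. Called secretory companions and transcription factors lie on the lower side, and called GalNAc transferases and O-glycan enzymes on the higher side except ST6GALNAC1.

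The genes whose pattern over the 6 libraries came closest to that of each mucin were sought by the root-mean-square difference of log2 CPM values centered on the control mean. For MUC5AC, MUC5B itself was the nearest of all tested genes at 0.405 log2 units, followed by TMEM47 (0.421) and ZIC2 (0.563). For MUC5B the nearest were ZIC2 (0.282), TMEM47 (0.333) and EPHA6 (0.360), all with at most 8 reads in any shCdGAP library. Their shCdGAP values were set largely by the prior count of 2, which compresses the difference, and the fitted log2 fold changes were farther apart, at -7.86 for ZIC2, -7.11 for TMEM47 and -6.41 for EPHA6 against -5.95 for MUC5B. EPHA6, for example, had 2, 8 and 1 reads in shCdGAP and 357, 328 and 268 in shCon libraries, and ZIC2 lies on chromosome 13. MUC13 had closer matches, FMN2 (0.0470), NIPAL4 (0.0546) and ARHGEF6 (0.0692). FMN2 had 1037, 1053 and 862 reads in shCdGAP against 274, 252 and 202 in shCon libraries, a log2 fold change of 2.01. For MUC2, which was added to this search after its values were seen, APOBEC3G (0.227) was nearest, and RFTN1 (0.258) was among the next. Both carried the same high replicate 2, as in APOBEC3G with 84, 391 and 81 reads in shCdGAP and 565, 580 and 511 in shCon libraries. For MUC6, also added afterwards, NCAM2 was nearest (0.143), with 1 read in all shCdGAP libraries and 18, 20 and 16 in the controls. Here too the prior count largely set the shCdGAP values of both genes. Their fitted log2 fold changes were -4.66 for MUC6 and -5.32 for NCAM2.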

How the data were processed

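RNA of 6 PC-3 samples, 3 shCdGAP and 3 shCon, was measured by RNA-seq. The authors deposited raw read counts per gene, 1 table per sample. Per the file headers, featureCounts 1.6.0 counted read pairs by strand on Ensembl release 77 of GRCh38, while the methods and the submitters' processing notes name featureCounts 1.4.6 and a single-read kit, after alignment with STAR 2.5.1b. Rows were taken as genes (64253, of which 56105 had a symbol in the name table used), and 0 columns were left unused.

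Differential expression was computed from the counts with edgeR 4.0.16 in R 4.3.3. TMM factors and the filter filterByExpr preceded its robust quasi-likelihood test, and p-values were adjusted by Benjamini-Hochberg over 16439 genes. Further tools were limma 3.58.1 and DESeq2 1.42.0 and Python 3.11.15. A gene was called where its adjusted p was under 0.01 and its absolute log2 fold change exceeded 1. CPM and RPKM values use TMM-scaled library sizes. Standard errors are the absolute log2 fold change over the square root of F. Counting intervals are exact (95%) and cover counting error only. The methods name 3 independent samples per group, and p-values measure the spread between these samples, which may be technical. Library pairs of a group differed by more than counting noise (chi-square per degree of freedom 2.58 to 6.89 in shCon, 3.20 for shCdGAP replicates 1 and 3, and 26.6 and 32.7 for the pairs with shCdGAP replicate 2). The smallest two-sided p from permuting these 3 and 3 libraries is 0.1.

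The mucin genes and all gene lists were chosen with earlier results of these data known. Named are all 10 mucins, ARHGAP31, up to 4 called genes per direction in each list and neighbourhood, the cell type markers, and for MUC5AC, MUC5B and MUC13 the 3 genes nearest in pattern. Other genes were named after their values were seen, among them FOXA2, SPDEF, AGR2, ZG16B, CD164, ATOH1, KLF4, GALNT2 and C1GALT1, the fifth and sixth called gene of a list, the genes flanking the cluster, and the regions within 5 Mb of a gene. Most listed genes enter only the counts and medians of their list, and some values are not reported here. The scripts were tested on simulated counts. The alternatives were other scalings, filters and thresholds, glmTreat, DESeq2, a replicate block and each library left out.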

Additional observations from a re-analysis of the deposited data

How the results depend on the processing

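The fold changes of the 6 fitted mucins kept their direction under the alternatives that gave one. MUC5AC and MUC6 had no value where 10 reads were required in every library, and the 4 mucins outside the fit had none at all. MUC5AC ranged from -6.70 to -6.15, MUC5B from -6.11 to -5.89, MUC13 from 1.95 to 2.05 and MUC1 from 0.34 to 0.45 on the log2 scale. MUC2 ranged from -2.80 (without shCdGAP replicate 2) to -0.99, and MUC6 from -7.29 (without shCdGAP replicate 2) to -4.14. Over all genes, a test against a fold limit (glmTreat) called 658 higher and 340 lower, compared with 1407 and 689, and leaving out 1 library gave 1220 to 1469 higher and 634 to 900 lower. Of the pathway genes (10 higher and 8 lower), 6 and 3 were called when 10 reads were required in every library, which removes genes near 0 in 1 group, and glmTreat called 5 higher. With 1 library left out the numbers were 7 to 9 higher and 7 to 14 lower. The 14 came without shCdGAP replicate 2, where 900 genes were lower over all features. Of the cluster neighbours (1 higher and 3 lower), 3 and 6 were called without a filter on low counts, 2 higher with DESeq2 and 2 higher at an adjusted p under 0.05. With 1 library left out these were 1 to 3 higher and 2 to 5 lower, the 3 and 5 without shCdGAP replicate 2, and 2 higher without shCon replicate 1 or 3. The cause was not tested. LYZ missed the call under glmTreat, as did GALNT12, B3GNT4 and B3GNT7.

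The labels do not say whether replicate numbers pair the samples. The deviations of same-numbered libraries correlated weakly across genes, at 0.0306, 0.0499 and 0.0469, each the highest for its number. With 3 libraries per group these values cannot decide whether the samples were paired. With a replicate block 1371 genes were higher and 677 lower, 8 pathway genes higher and 7 lower, and 1 neighbour higher and 3 lower. FCGBP (adjusted p = 0.0214), GCNT4 (adjusted p = 0.0121) and GAL3ST4 (adjusted p = 0.0143) lost the call under the block in edgeR's quasi-likelihood test. Depth limits MUC4, MUC15, MUC16 and MUC20, with at most 9 reads per library. For MUC20, a loss of reads to the overlapping MUC20-OT1 was not tested.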
